A study of Homo sapiens with 4 samples.

Results

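Broad distal open regions are the widest stretches of accessible chromatin that lay away from annotated promoters in BJ, an established human fibroblast line. ATAC-seq, in which a transposase cuts accessible DNA and tags it for sequencing, was run on 4 samples in 2 groups of 2. All samples carried the reverse tetracycline transactivator, delivered by lentivirus, and a doxycycline-inducible retroviral construct. One group expressed KLF4 alone (CTR) and the other expressed wild-type ΔNp63α together with KLF4 (p63), so KLF4 was present in both. The lines were polyclonal, and each replicate was a separate round of induction of the same lines. The authors deposited 1 peak list per group with no value per replicate. No spread between replicates can therefore be given, no p-value is reported, and regions are not counted as replicates of a condition.

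A member had a −log10 q (false discovery rate of the peak) of at least 10, a width of at least 1200 bp and a position on chromosomes 1 to 22 or X. Its summit, the base with the most overlapping reads, lay 3 to 200 kb from the nearest transcription start site (TSS) of a protein-coding gene and more than 3 kb from any TSS in GENCODE release 44. There were 407 members among 56580 CTR regions and 411 among 62233 p63 regions at the threshold. They were 1.35% of the 30236 distal CTR regions and 1.21% of the 34053 distal p63 regions. Regions of at least 1200 bp at any position numbered 4098 for CTR and 3926 for p63, so about 9.93% and 10.5% of these wide regions were distal by the rule. The members were selected on width, −log10 q and position, and those values are given below as description only. The 29829 and 33642 distal regions that met every other criterion but were under 1200 bp wide served as the comparison and are called narrower.

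Distal open regions are mostly enhancers, DNA elements bound by transcription factors that raise the output of genes at a distance. In fibroblasts many are bound by AP-1, a dimer of FOS and JUN proteins, and by TEAD factors, the DNA-binding partners of YAP. Other open stretches away from coding genes include CpG islands, insulators bound by CTCF, and genes read by RNA polymerase III such as those for tRNAs. p63 is the master regulator of stratified epithelia and binds the site of the p53 family, made of a pair of like elements each with a CNNG core. KLF4 binds GC-rich elements and acts with p63 in the conversion of fibroblasts to keratinocyte-like cells.

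The members held several kinds of sequence, and examples are shown because the comparisons below turn on them. Coordinates are 1-based on hg38. The first set are p63 sites within 100 bp of the summit of p63-list members, with both cores in capitals. They are the 5 members with the highest −log10 q among those with a site, and the member near GATAD2A, added because it was absent from the CTR list.
RAB11FIP4, chr17:31549951-31549970: agtCAAGcccgggCTTGcgg
RHOB, chr2:20424904-20424923: aatCCAGcttgggCTTGcca
UBAC2, chr13:99151082-99151101: agaCTCGtctgtgCATGccc
HAND1, chr5:154543478-154543497: gaaCAAGcctgagCTAGctt
JAM3, chr11:134120378-134120397: agaCATGcataaaCTAGttc
GATAD2A, chr19:19438985-19439004: gcaCTAGcccacaCTTGctt
The HAND1 site matched the full pattern with 0 mismatches, the JAM3 site had 1, those of UBAC2 and GATAD2A had 2, and those of RAB11FIP4 and RHOB had 3.

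The second set are tRNA genes inside members, with the internal B box, the promoter element bound by transcription factor TFIIIC, in capitals. Each is written on the strand that carries the B box.
TRS-CGA1-1 near PER1, chr17:8138881-8138962, minus strand: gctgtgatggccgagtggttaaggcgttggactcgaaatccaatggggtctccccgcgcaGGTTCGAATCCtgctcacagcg
TRL-CAG2-1 near PLLP, chr16:57299951-57300033, plus strand: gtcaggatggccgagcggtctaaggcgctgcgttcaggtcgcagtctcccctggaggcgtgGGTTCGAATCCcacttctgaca
TRP-AGG2-4 near WNT11, chr11:76235513-76235584, plus strand: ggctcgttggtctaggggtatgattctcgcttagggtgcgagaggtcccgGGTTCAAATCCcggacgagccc
The names give the amino acid by its letter (S for serine, L for leucine, P for proline) and the anticodon.

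The third set shows a CpG-island-like stretch of the widest such member of the p63 list with at least 90% unique sequence (CG in capitals), an intronic member near PTGFR with 6 AP-1 motifs (TGACTCA or TGAGTCA in capitals), a tandem repeat near EXOC2 with 18, and a satellite near DEFB115 (TEAD motif in capitals). All are on the plus strand. PTGFR, EXOC2 and DEFB115 were picked after their values had been seen.
PLXND1, chr3:129626822-129626941: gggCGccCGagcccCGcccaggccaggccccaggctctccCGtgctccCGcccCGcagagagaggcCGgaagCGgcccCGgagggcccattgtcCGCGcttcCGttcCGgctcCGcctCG
PTGFR, chr1:78340094-78340213: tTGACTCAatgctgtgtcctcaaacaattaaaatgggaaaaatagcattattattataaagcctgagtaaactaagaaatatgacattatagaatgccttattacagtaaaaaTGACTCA
EXOC2, chr6:862053-862172: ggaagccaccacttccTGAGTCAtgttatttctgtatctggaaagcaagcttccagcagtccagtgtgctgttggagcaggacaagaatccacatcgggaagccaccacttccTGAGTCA
DEFB115, chr20:31157843-31157932: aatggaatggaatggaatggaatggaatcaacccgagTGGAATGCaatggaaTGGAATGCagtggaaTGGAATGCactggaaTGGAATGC

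The fibroblast label was checked against marker genes, counting a marker as open where a region at the threshold lay over a TSS. Of 12 fibroblast markers, 10 were open in each list, among them COL1A1, VIM, THY1 and TWIST1. Of 8 keratinocyte markers, CDH1 was open in the CTR list, and CDH1 and EPCAM in the p63 list. None of 4 endothelial and none of 4 leucocyte markers was open in either list, and PMEL and MITF were open in both among 4 melanocyte markers. The read depth of the libraries was not in the files. The genome-wide background coverage solved from the deposited fold and −log10 p was 1.18 reads for CTR and 1.13 for p63.

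The members had a fold close to that of narrower distal regions, with more reads at the summit and a higher local background. The median width was 1327 bp for CTR and 1329 bp for p63, against 508 and 486 bp for narrower regions. The pileup at the summit, which is the number of overlapping reads and was solved from the fold and the −log10 p, had a median of 55 reads against 28 for CTR and 58 against 28 for p63. The local background used by the peak caller was 5.28 against 2.04 reads (CTR) and 5.28 against 2.0 (p63). Fold enrichment, the ratio of these 2 quantities after 1 is added to each, was 8.72 against 9.22 in the CTR list and 9.16 against 9.41 in the p63 list. The paper names an input control for ChIP-seq only, and none is given for these lists. Without one, the local background is drawn from the same reads, those of the region included. A wide region can then raise its own background and lower its own fold. These values therefore do not separate a higher coverage around the members from their selection on width, whose part was not tested.

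**Figure D1:**
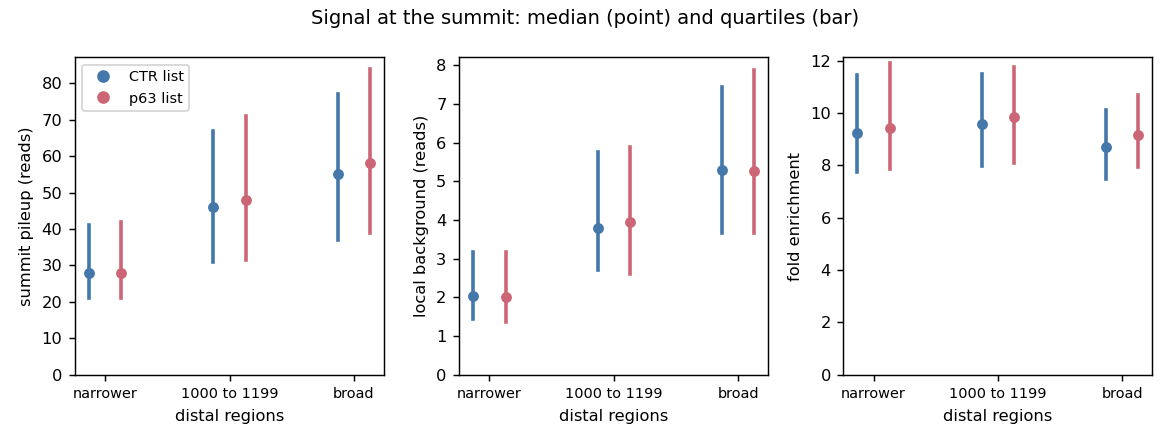
Summit pileup in reads (left), local background in reads (middle) and fold enrichment (right) for narrower distal regions, those of 1000 to 1199 bp and the broad ones, in the CTR (blue) and p63 (red) lists. Points are medians and bars span the quartiles; pileup and background rise with width (28 to 55 and 2.04 to 5.28 in the CTR list) while the median fold stays between 8.72 and 9.87.

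The summit lay anywhere along a broad region. It fell in the central part (33.3 to 66.7% of the width) in 126 of 407 CTR members (30.96%, 95% Wilson interval 26.7 to 35.6) and 125 of 411 p63 members (30.4%, 26.2 to 35.03), against 66.1% and 67.6% of narrower regions. These intervals, and those below, cover counting error only. At 1000 to 1199 bp the central share was 45.4% (CTR) and 37.6% (p63), between that of the members and that of all narrower regions. Just inside the width limit were regions near NIBAN2 (1200 bp), AUH (1201 bp) and LPIN1 (1201 bp) in the CTR list and near UBASH3B, MATN2 and SSBP3 (1200 bp each) in the p63 list. Just outside were regions near NIPAL4 and LRRC74A (1199 bp each) and PARD3 (1198 bp) in the CTR list and near RPTOR (1198 bp), WDR33 (1197 bp) and YBEY (1196 bp) in the p63 list.

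The distance to genes was much like that of the narrower regions, while fewer members lay inside protein-coding genes. The median distance to a protein-coding TSS was 23576 bp for CTR and 23465 bp for p63, against 23255 and 23093 bp. In the CTR list 248 of 407 members (60.9%, 56.1 to 65.6) lay in a gene, against 64.8% of narrower regions. In the p63 list 239 of 411 (58.2%, 53.3 to 62.8) did, against 64.2%. In a protein-coding gene were 46.4% of CTR members (41.6 to 51.3) against 53.6% of narrower regions, and 46.0% of p63 members (41.2 to 50.8) against 52.9%. In an exon were 17 CTR members (4.18%, 2.62 to 6.59) against 3.89% of narrower regions, and 23 p63 members (5.596%, 3.76 to 8.26) against 3.87%. In a UTR were 1.72% of CTR members (0.836 to 3.51) against 2.05%, and 3.65% of p63 members (2.22 to 5.93) against 1.99%. The densest chromosome was 19, with 4.09 loci per 10 Mb, and the sparsest by length was X, with 0.449. Of the distal regions on X, 1.14% (CTR) and 0.701% (p63) were broad, against 1.35% and 1.21% of all distal regions.

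Broad regions of the CTR and p63 lists that overlapped were joined into 602 loci. Of these, 216 were broad in both lists (35.9%, 32.1 to 39.8), 191 in the CTR list only and 195 in the p63 list only. Where both were broad, the p63 width was 0.997 of the CTR width at the median (quartiles 0.951 and 1.05), and 163 of 216 loci were within 10% of each other. Most loci that were broad in 1 list had a region in the other list that fell short of the limit. Of the 191 loci broad in the CTR list only, the p63 list had a single region at 136, at least 2 at 34 and none at 21, and its widest region measured 1000 to 1199 bp at 70 of them. Of the 195 broad in the p63 list only, the CTR list had a single region at 153, at least 2 at 21 and none at 21, and its widest measured 1000 to 1199 bp at 76. At 2 of the CTR loci the p63 region was also at least 1200 bp wide but its summit failed the distance rule.

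**Figure D2:**
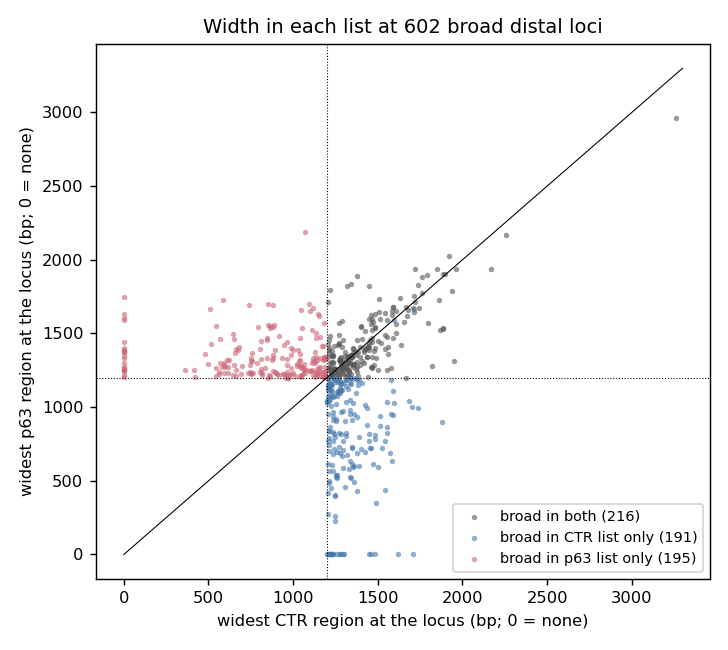
Width in bp of the widest CTR region (horizontal) and the widest p63 region (vertical) at each of the 602 loci, with 0 for none at the threshold; dotted lines mark 1200 bp and the solid line equal widths. Loci broad in both lists (grey, 216) follow the line, and 21 loci on each side lie at 0.

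Members were found in the other list more often than narrower regions were. Without an overlapping region of the other list at the threshold were 21 of 407 CTR members (5.16%, 3.399 to 7.76) and 21 of 411 p63 members (5.11%, 3.37 to 7.68). Over all regions at the threshold the share was 16.5% for CTR and 23.9% for p63, and over narrower distal regions it was 20.6% and 29.6%. A wide interval meets another more readily, so the summit alone was also used. It lay inside a region of the other list for 94.6% of CTR members and 92.7% of p63 members, against 79.4% and 70.2% of narrower regions. Members also had more reads at the summit, whose part in this result was not tested. Regions of 1000 to 1199 bp stood between, with 6.69% and 9.47% without a counterpart.

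Members without a counterpart had fewer reads at the summit than shared ones. The 21 of the CTR list had a median −log10 q of 13.9 and a highest of 19.7, and their median summit pileup was 23 reads against 57 for the shared members. The 21 of the p63 list had a median of 20.7 and a highest of 44.4, with a median pileup of 33 reads against 60. A −log10 q under 20 was found for 21 of 21 CTR and 10 of 21 p63 members without a counterpart. Among shared members it was found for 54 of 386 (CTR) and 57 of 390 (p63). Only 1 CTR member had no p63 peak at any threshold (0.246%, near NIBAN2), where the share over all CTR regions was 3.28%. In the p63 list 7 members had no CTR peak at any threshold (1.70%, 0.827 to 3.47), where the share over all p63 regions was 12.0%. These 7 were near WASF2, TENT5C, MERTK, KY, TYRP1, TSPEAR and GATAD2A, and the one nearest to KY, 43612 bp from its TSS and in an intron of another gene, had the highest −log10 q, 44.4.

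The members with the most bases not covered by the other list had no counterpart at the threshold at all. On the CTR side they lay near SNRPF (chr12:95836198-95838432, 2235 bp), C9orf85 (1708 bp), CLEC3B (1621 bp), HAS2, which makes hyaluronan (1481 bp), and SARDH (1457 bp). All 5 overlapped a p63 peak below the threshold. Their −log10 q ran from 11.0 near HAS2 to 15.8 near C9orf85. On the p63 side they lay near MERTK, a receptor tyrosine kinase of phagocytes (chr2:112031704-112033449, 1746 bp), IQSEC1 (1631 bp), CITED4 (1602 bp), DLEC1 (1591 bp) and TSPEAR (1443 bp). Their −log10 q ran from 10.01 near MERTK to 27.9 near CITED4, and those near MERTK and TSPEAR were absent from the CTR list.

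The widest members were near SHCBP1, PLXND1, SNRPF, SOX4 and GPR132 in the CTR list and near SHCBP1, FRG2B, PLXND1, KCNQ5 and GPR132 in the p63 list. The region near SHCBP1 (chr16:46398328-46401586) was 3259 bp wide for CTR and 2963 bp for p63. Only 19.7% of its 31-base words occurred once in the genome, and its fold was low, 3.81 and 4.08. Near PLXND1, a semaphorin receptor, the widths were 2258 bp (CTR) and 2171 bp (p63), with a GC content of 59.4% in the CTR region. Near SOX4, a transcription factor of progenitor cells, they were 2167 bp (CTR) and 1940 bp (p63). The FRG2B region was 2192 bp wide in the p63 list and was covered by CTR regions of 2006 bp in all, the widest 1070 bp. The KCNQ5 region measured 2028 bp (p63) and 1923 bp (CTR), and the GPR132 region 1962 bp (CTR) and 1941 bp (p63).

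A far larger share of broad distal regions than of narrower ones held a tRNA gene, although most distal tRNA genes lay in narrower regions. RefSeq lists 443 tRNA genes on these chromosomes, and tRNA genes carry no TSS in the GENCODE annotation used, so the distance rule did not remove them. At least 1 tRNA gene was overlapped by 20 of 407 CTR members (4.91%, 3.20 to 7.47) and 21 of 411 p63 members (5.11%, 3.37 to 7.68). Among narrower regions the shares were 0.178% (53 of 29829) and 0.149% (50 of 33642). Among regions of 1000 to 1199 bp they were 0.901% and 0.947%. Seen from the tRNA genes, 38 of the 98 in a distal CTR region were in a broad one (38.8%), and 32 of 95 in the p63 list (33.7%).

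There were 27 loci with a tRNA gene, of which 14 were broad in both lists. Near PER1, a clock gene, the p63 region held serine and threonine tRNA genes, was 1334 bp wide and had a summit pileup of 149 reads, against 1156 bp of CTR region. Near PLLP, a pair of identical leucine tRNA genes on opposite strands lay in a region of 1282 bp (CTR) and 1300 bp (p63). Near WNT11 a pair of proline tRNA genes lay in 1629 bp (CTR) and 1744 bp (p63), and near MPZL1 another proline pair lay in 1583 bp (CTR) and 1656 bp (p63). Near MDM4 a pair of lysine tRNA genes lay in 1461 bp (CTR) and 1625 bp (p63). Near FCGR2A, 3 CTR members of 1363, 1297 and 1255 bp each held tRNA genes for aspartate, glutamate and glycine, and 0% of their 31-base words were unique in the genome. The tRNA regions were mostly CpG-rich, and 19 of 20 CTR and 19 of 21 p63 members met the CpG-island-like rule.

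CpG-island-like sequence was more frequent in the members. A region counted when its best 200 bp window had a GC content of at least 55% and an observed over expected CpG of at least 0.65. The share was 112 of 407 in the CTR list (27.5%, 23.4 to 32.1) and 97 of 411 in the p63 list (23.6%, 19.8 to 27.9), against 4.75% and 4.17% of narrower regions. A wider region has more windows, so the window at the summit was used too, and the shares were 10.8% (8.15 to 14.2) and 10.7% (8.07 to 14.1), against 2.40% and 2.11%. The rise was not particular to the members. Among regions of 1000 to 1199 bp the shares were 15.1% (CTR) and 15.2% (p63), and at the summit 6.44% and 7.04%. From regions under 300 bp to those of 900 to 1199 bp the summit share rose from 1.01% to 5.75% (CTR). In the p63 list it rose from 0.694% to 5.81%. The median GC content over the region was 48.3% against 45.7% in the CTR list and 50% against 46.8% in the p63 list. Loci broad in both lists were CpG-island-like more often (75 of 216, 34.7%) than loci broad in the CTR list only (41 of 191, 21.5%) or the p63 list only (25 of 195, 12.8%). A locus counted when any of its members did, so loci broad in both had more regions to count on. Loci with a tRNA gene are included (14, 6 and 7).

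**Figure D3:**
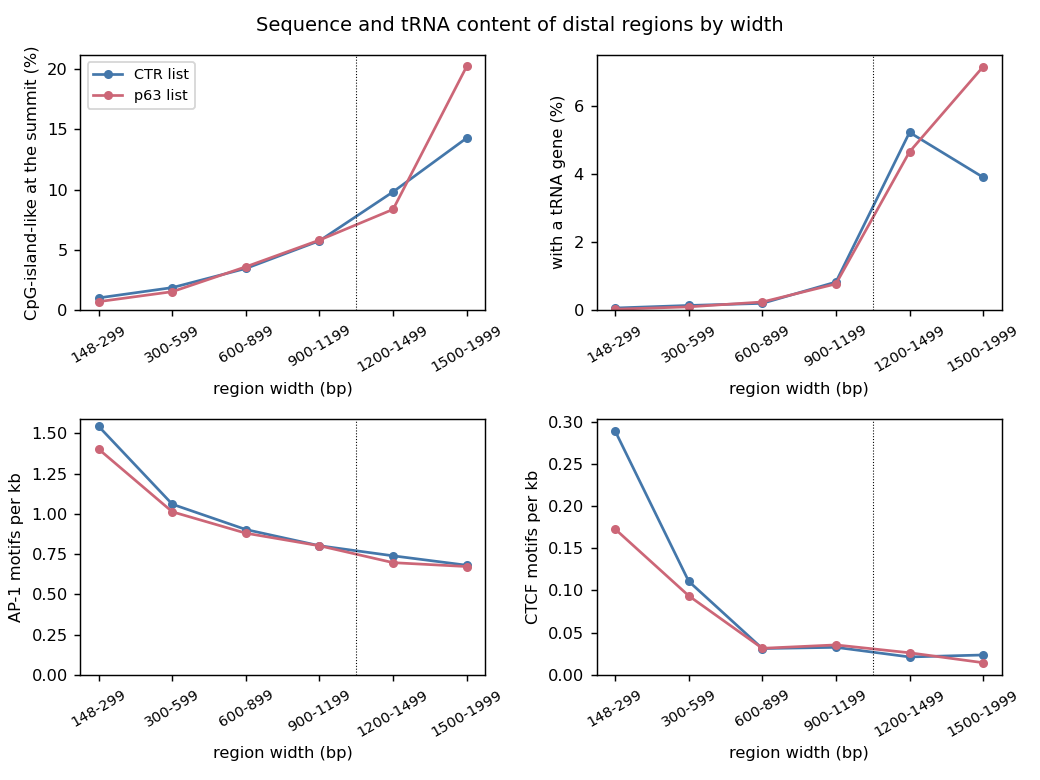
Distal regions by width class in bp (horizontal) in the CTR (blue) and p63 (red) lists, with the share that is CpG-island-like at the summit, the share with a tRNA gene, and AP-1 and CTCF motifs per kb. The dotted line marks 1200 bp, and classes of under 20 regions are not drawn; AP-1 falls from 1.54 to 0.681 per kb over the CTR classes and the tRNA share is under 1% in every class below 1200 bp and between 3.90% and 7.14% in the classes drawn above it.

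Broad regions held fewer AP-1 motifs per kb than narrower ones, at the end of a fall with width that was not particular to them. From regions under 300 bp to those of 900 to 1199 bp the density fell from 1.54 to 0.802 per kb (CTR). In the p63 list it fell from 1.40 to 0.802. Motifs were counted on both strands, overlaps included. AP-1 was TGACTCA or TGAGTCA, and the CTR members held 403 of them in 564 kb, which is 0.715 per kb against 1.001 in narrower regions. The p63 members held 389 in 571 kb, which is 0.681 against 0.973 per kb. The density was lower in the broad regions on 15 of the 17 chromosomes with at least 10 members for CTR and on 18 of 18 for p63. With narrower regions weighted to the GC content of the broad ones, the comparison was 0.715 against 0.929 (CTR) and 0.681 against 0.895 (p63). Within 100 bp of the summit, 119 of 407 CTR members (29.2%, 25.03 to 33.8) and 110 of 411 p63 members (26.8%, 22.7 to 31.2) held an AP-1 motif, against 33.9% and 31.2% of narrower regions. The p63 interval includes the share of the narrower regions. At 1000 to 1199 bp the shares were 29.1% (CTR) and 26.1% (p63), close to those of the members.

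Other motifs differed less, apart from those of CTCF and KLF. CTCF, the insulator protein, had 12 motifs in CTR members (0.0213 per kb against 0.0826) and 13 in p63 members (0.0228 against 0.0723). The summit window held one in 5 of 407 CTR members (1.23%) and 5 of 411 p63 members (1.22%), against 3.88% and 3.16% of narrower regions. The low CTCF density was not particular to the members. From regions under 300 bp to those of 900 to 1199 bp it fell from 0.289 to 0.0325 per kb (CTR). In the p63 list it fell from 0.173 to 0.0354. At 1000 to 1199 bp the summit shares were 1.67% (CTR) and 1.35% (p63), close to those of the members. The KLF motif, GGGCGGGGC, GGGCGTGGC, GGGTGGGGC or GGGTGTGGC, had 0.266 matches per kb against 0.136 (CTR) and 0.270 against 0.147 (p63), but 0.256 and 0.247 in narrower regions weighted to the same GC content. TEAD (ACATTCCA, ACATTCCT, GCATTCCA or GCATTCCT) had 0.463 against 0.411 per kb (CTR) and 0.446 against 0.392 (p63). With narrower regions weighted to the same GC content it was 0.463 against 0.373 (CTR) and 0.446 against 0.353 (p63). By chromosome the direction was mixed. TEAD was denser in the broad regions on 10 of 17 chromosomes for CTR and on 8 of 18 for p63. The satellite-like members near DEFB115 held 15 and 14 TEAD matches for CTR and 15 and 10 for p63. RUNX (TGTGGT) had 0.791 against 0.931 per kb (CTR) and 0.795 against 0.921 (p63), and NFI (CTTGGCA) 0.206 against 0.237 and 0.189 against 0.240. ETS (CCGGAA) had 0.195 against 0.145 (CTR) and 0.194 against 0.141 (p63), and CEBP (TTGCNNAA) 0.518 against 0.598 and 0.457 against 0.560. After GC weighting the narrower density of ETS was 0.198 (CTR) and 0.187 (p63), so the CTR direction turned, and that of CEBP was 0.516 and 0.484, so the CTR difference was gone. The serum response factor motif had 0.0656 against 0.0679 and 0.0525 against 0.0616.

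**Figure D4:**
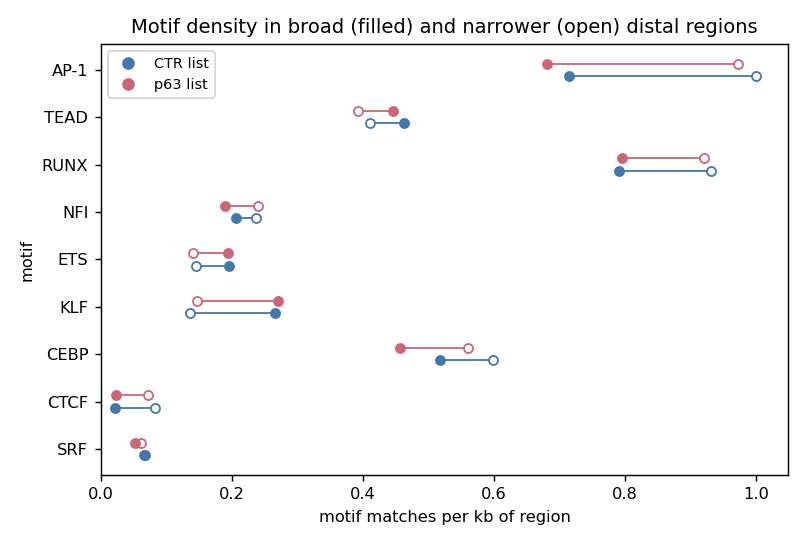
Motif matches per kb of region (horizontal) in broad (filled) and narrower (open) distal regions of the CTR (blue) and p63 (red) lists. AP-1 is lower in the broad regions of both lists (0.715 against 1.001 and 0.681 against 0.973), CTCF is lower and KLF higher.

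Members were sorted into 4 kinds, in the order tRNA gene, copied (under 50% of 31-base words unique), CpG-island-like and other. Satellite repeats were not a kind of their own. In the CTR list these held 20, 18, 90 and 279 members, and in the p63 list 21, 18, 76 and 296. The last kind was 68.6% of CTR members (63.9 to 72.9) and 72.0% of p63 members (67.5 to 76.1), against 92.2% and 92.4% of narrower regions. In it the AP-1 density was 0.833 against 1.04 per kb (CTR) and 0.787 against 1.01 (p63), and the KLF density 0.110 against 0.107 and 0.127 against 0.122. The TEAD density in it was 0.560 against 0.420 (CTR) and 0.473 against 0.398 per kb (p63). The part of the satellite-like members near DEFB115 in these TEAD differences was not tested. In the CpG-island-like kind the AP-1 density was 0.406 against 0.385 (CTR) and 0.385 against 0.372 per kb (p63).

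The copied members were few and partly very strong, and reads from near-identical copies cannot be assigned to one of them. Near DUX4, a gene of the D4Z4 repeat on chromosome 4, a member of 1940 bp (CTR) and 1791 bp (p63) had pileups of 230 and 233 reads. The tandem repeat near EXOC2 was 1713 bp (CTR) and 1757 bp (p63) wide and held 17 and 18 AP-1 motifs, the most of any member. Regions under 50% unique made up 23 of 407 CTR members (5.65%, 3.79 to 8.34) and 19 of 411 p63 members (4.62%, 2.98 to 7.11), against 3.35% and 3.63% of narrower regions.

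The share of broad regions with a p63 site near the summit was below that of narrower ones, by a difference that turned direction in the CTR list at other width limits (0.124 percentage points higher at 1000 bp and 0.256 at 1500 bp). The site was 20 bases long, with 4 fixed core positions and at most 3 mismatches at the other 16. It was found in 3 of 407 CTR members (0.737%, 0.251 to 2.14), against 0.982% of narrower CTR regions. In the p63 list it was found in 11 of 411 members (2.68%, 1.501 to 4.73), against 4.48% of narrower p63 regions (4.26 to 4.71). The interval of the 411 members includes that 4.48%. With at most 2 mismatches the p63-list difference was -0.323 percentage points. Among members shared with the CTR list the share was 10 of 390 (2.56%, 1.40 to 4.65), against 1.47% of shared narrower regions. Among those without a CTR counterpart it was 1 of 21 (4.76%, 0.846 to 22.7), against 11.7% of such narrower regions. The intervals of the shared and of the p63-only members are wide, and that of the shared members overlaps the narrower share's interval of 1.32 to 1.63.

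At the 11 members with a site the CTR region was often narrower. The CTR list measured under 1200 bp at 8 of the 11, and its width over the p63 width had a median of 0.649 (lowest 0, highest 1.07). Among the other 400 members it measured under 1200 bp at 179 (44.8%), and the median was 0.916. Near HAND1, a transcription factor of heart and neural crest, the region was 1227 bp (p63) and 690 bp (CTR). Near JAM3, a junctional adhesion molecule, it was 1299 bp (p63) and 785 bp (CTR). Near UBAC2 it was 1263 bp (p63) and 985 bp (CTR), and near RAB11FIP4, where it also held a tRNA gene, 1239 bp (p63) and 1136 bp (CTR). Near RHOB, a small GTPase of actin control, it was 1244 bp (p63) and wider in the CTR list, 1329 bp. The members were selected on their p63 width, which lowers the ratio for any subset.

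**Figure D5:**
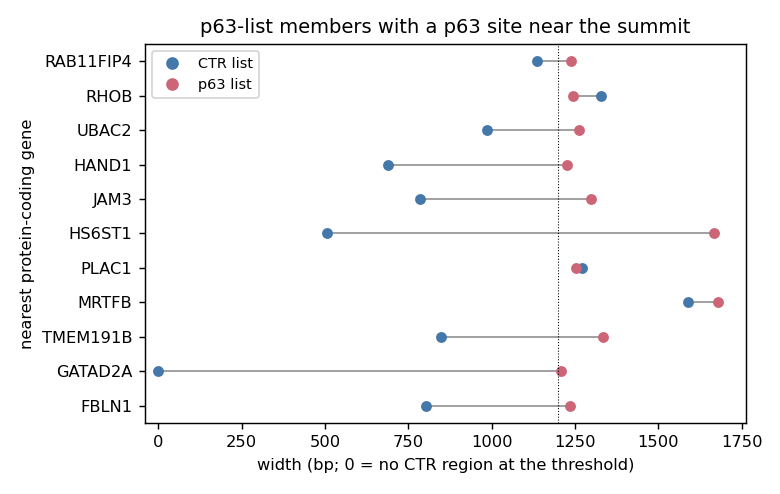
Width in bp (horizontal) of the p63 region (red) and of the CTR regions over it (blue, 0 for none at the threshold) at the 11 p63-list members with a p63 site within 100 bp of the summit, ordered by −log10 q. The CTR width is under 1200 bp (dotted line) at 8 of them, with 0 near GATAD2A.

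Summit pileups of the 2 lists were compared after each was scaled by its genome background. With this scaling equal read numbers give a log2 ratio of p63 over CTR of 0.06. The ratio had a median of 0.11 at the 216 loci broad in both (quartiles -0.09 and 0.30), 0.04 at those broad in the CTR list only with a p63 region and 0.17 at those broad in the p63 list only with a CTR region. Over narrower shared regions it was 0.06, the value of equal read numbers. When members of 1 list were taken, the other list's regions were narrower in either direction: the median of other width over own width was 0.938 for 386 shared CTR members and 0.933 for 390 shared p63 members, where 0.988 and 1.02 held for narrower regions. Selection on width in 1 list gives such a ratio in both directions. The pileup ratios of 0.04 and 0.17 also come from classes set by width. Since pileup rose with width, their difference is not free of that selection.

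The loci were nearest to 552 protein-coding genes, and 509 of these had 1 locus. Over all 19962 protein-coding genes that is 2.77%, and over the 10738 that were nearest to any distal region it is 5.14%. FOXL1, a forkhead factor of mesenchyme, had the most, 4 loci on chromosome 16, of which 2 were broad in both lists. A locus counted as broad in both only where the regions of both lists also met the distance rule. They were 1881, 1234, 1260 and 1209 bp wide in the CTR list, and the p63 list had 1684, 679, 1224 and 1249 bp there. PTGES, the prostaglandin E synthase, ZNF184, MAML2, a Notch coactivator, FCGR2A and ASAP2 had 3 each. Among 37 genes with 2 loci, SHCBP1 and FRG2B had the largest summed width. The ZNF184 and FCGR2A loci all held tRNA genes. Nearest in position does not show which gene a region acts on.

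Of 151 genes in 6 lists of fibroblast and epidermal biology, 17 were nearest to a broad locus. Over all protein-coding genes the share was 2.77%, and over those nearest to any distal region 5.14%. The lists were chosen with earlier results of these data known and the count of each was small, so no excess is read from them. Growth factor signalling had 5 of 25 (TGFB2, SMAD3, SMAD7, EGFR and LIF). The widest was near SMAD3, the signal transducer of TGF-β, with 1649 bp (p63) and 1509 bp (CTR), and the strongest was in an intron of EGFR, with summit pileups of 143 (CTR) and 159 (p63) reads. Mesenchymal transcription factors had 4 of 25 (TWIST2, SNAI2, FOXF1 and FOXD1), and the TWIST2 region measured 1708 bp (CTR) and 1676 bp (p63). Actin, adhesion and YAP target genes had 3 of 25 (ANKRD1, FLNA and PALLD). FLNA, an actin crosslinker, had the widest, 1887 bp (CTR) and 1536 bp (p63), but 1.67% of its CTR words were unique.

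Extracellular matrix genes had 2 of 25, COL1A1 and COL5A1, the latter with 2 loci. The intergenic COL5A1 region was 1658 bp in the p63 list and 1049 bp in the CTR list, and the intronic one 1267 bp (p63) and 1204 bp (CTR). The COL1A1 region was 1311 bp (CTR) and 801 bp (p63). Epidermal and keratinocyte genes had 3 of 35. Near KRT17, a keratin of stressed and basal epidermis, the region was 1267 bp (p63) and 1046 bp (CTR). Near TFAP2A and TFAP2C, AP-2 factors of surface ectoderm, the CTR regions were 1226 and 1371 bp and those of p63 were 1116 and 1099 bp. Of the 16 genes for AP-1 and TEAD-YAP factors, 12 were nearest to some distal region and 0 to a broad locus, a count too small to set apart from the 5.14% of all such genes. All of these 17 genes' members had a counterpart in the other list, where only 5.16% of all CTR members and 5.11% of all p63 members had none.

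The neighbourhoods of members were about as dense as those of narrower regions, with slightly higher means. Within 12.5 kb of a member the CTR list had a mean of 0.963 other regions at the threshold, against 0.869 around narrower regions, and the p63 list 1.03 against 0.969. No neighbour was present for 40.0% of CTR members and 38.7% of p63 members, against 43.0% and 39.6%. Only 6 CTR and 2 p63 pairs of members lay within 12.5 kb of each other.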

How the data were processed

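ATAC-seq reads from the 2 replicates of each group were mapped by the authors to hg38 with Bowtie2 2.3.4.3, and peaks were called with MACS2 from the 2 replicates. Whether reads were combined before calling or peak files afterwards is not given, and each peak name carries 1 alignment name. The MACS2 version and options, the handling of duplicate reads and the transposase shift are not given in the sources used here. In the deposited lists each peak had a fold, which is the ratio of summit pileup to local background with 1 added to each, a −log10 q, a summit offset in bp and, for the p-value, a −log10 p, all in the units of the authors' peak caller and not scaled between lists. The deposited score column was not used. No peak ran past a chromosome end of hg38.

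Features were computed with Python 3 scripts (pandas, numpy, scipy and pysam). Positions came from GENCODE release 44 and tRNA genes from the RefSeq table, which uses the same coordinates on these chromosomes. A region was called shared when it overlapped a region of the other list by at least 1 bp. Pileup and local background were solved from fold and −log10 p, assuming the Poisson test of MACS2, and every member was solved within a residual of 0.01 in −log10 p. A region was called copied when under 50% of its 31-base words occurred once in the genome. Shares have 95% Wilson intervals. Directions over chromosomes used those with at least 10 members. The functions were tested on simulated data. The NFI, ETS and CEBP patterns were shortened after a first count gave few matches.

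The named members were the 5 widest of each list, the 5 of each list with the most uncovered bases, the 5 strongest with a p63 site, the 8 genes nearest to the most loci, and members near genes of the 6 lists. The members and lists were chosen with earlier results of these data known. No test was run, since each group had 1 list. The values and sequence of 1 member are not reported here.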

Additional observations from a re-analysis of the deposited data

Results flagged for a closer look

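Sequences outside chromosomes 1 to 22 and X were used in no comparison above. On unplaced and alternate sequences, leaving aside Y and the mitochondrial genome, the CTR list held 76 regions of at least 1200 bp among 1174 at the threshold (6.47%), and the p63 list 85 among 1273 (6.68%). Both counts are above the limit of 3 that a count of 0 allows, but the shares are near those of chromosomes 1 to 22 and X (7.24% and 6.31%). The widest regions there measured 3136 and 3135 bp.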

How the results depend on the processing

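No spread between replicates, no leave-one-out value and no test was possible, because each group was deposited as 1 list. No paired analysis was possible because the lists carry no replicate columns. Depth was unknown, so whether a region near the width limit lies above it by counting error was not tested. The alternatives that leave out copied regions and tRNA genes, and the CpG window at the summit, were chosen after seeing the data.

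The width minimum set the number of members: 1184 CTR and 1150 p63 at 1000 bp, 81 and 88 at 1500 bp, and 4 and 4 at 2000 bp. With 4 members per list the values are those of single regions. At 1000 bp the CpG-island-like difference was 14.9 (CTR) and 14.3 (p63) percentage points, and the p63 list-only share 7.91%. At 1500 bp the AP-1 difference was -0.35 per kb (CTR), the p63 CpG difference 34.3 points and the share of loci broad in both 32.0%. At 2000 bp the list-only share was 25% and 0%, the width ratio 0.909 and 0.994, the AP-1 difference -0.89 and -0.86 per kb, the p63-site difference -0.979 and -4.46 points, and the CTR CpG difference 70.0 points. The CTR p63-site difference turned to 0.124 points at 1000 bp and 0.256 at 1500 bp.

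At a −log10 q of 20 the list-only share was 0% (CTR) and 3.20% (p63), with overlaps of at least 50% of both regions 17.0% and 14.4%, and against the other list at any threshold 0.246% and 1.70%. The CpG difference at the summit was 8.41 and 8.60 points. In the p63 list the AP-1 difference was -0.12 per kb within 100 bp of the summit and -0.21 after GC weighting, and the p63-site difference over whole regions was -7.17 sites per 100 kb. For each of these the cause was not tested.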

Other observations

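Distal regions of at least 1200 bp that failed only the −log10 q limit of 10 numbered 19 for CTR and 17 for p63, so nearly all wide distal peaks of both lists were above the limit. Among the chromosomes, 13 and 14 held 7 loci each and 21 held 4, against 75 on chromosome 1. The share of distal regions that were broad ran from 0.557% on chromosome 13 to 2.80% on chromosome 19 in the CTR list, and from 0.418% on chromosome 14 to 2.37% on chromosome 19 in the p63 list.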
